A study of Mus musculus with 4 samples.

Results

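Expression of 10 genes of the Notch pathway was examined in basal and luminal epithelial cells sorted from ductal tips of prostates of young mice. The genes were taken by name from a list drawn up with earlier results of these data known, and they comprise 3 ligands (Jag1, Jag2 and Dll1), 3 receptors (Notch1, Notch2 and Notch3) and 4 transcriptional targets (Hes1, Hey1, Heyl and Nrarp). All 10 were found among the 49671 genes of the deposited table. All cells came from untreated CD-1 mice, and the labels give an age of postnatal day 10 to 13. The tips were cut from the ventral lobes of a number of mice, and living cells were sorted by flow cytometry after exclusion of cells bearing CD45, CD31 or CD140a. Basal cells were EpCAM high and CD49f high, and luminal cells were EpCAM high and CD49f low. Bulk RNA-seq was performed on 4 libraries, numbered by the labels as replicates 1 and 3 of the basal and 3 and 2 of the luminal cells. The comparison asks how the genes of the pathway differ between basal cells, which the study treats as multipotent at this age, and the luminal cells that arise from them.

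Notch signalling passes between cells in contact. A ligand of the Jagged or Delta family on the sending cell binds a Notch receptor on its neighbour, and the receptor is then cut by an ADAM protease and by gamma-secretase. The released intracellular domain enters the nucleus, binds the DNA-binding protein RBPJ with a Mastermind coactivator, and switches on targets of the Hes and Hey families, which encode transcriptional repressors. In the prostate and other stratified or bilayered epithelia the pathway is known for its part in the choice between basal and luminal fates.

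Values are read counts scaled by the authors to a common total of aligned reads per library, and they are called normalized counts here. The steps between low values gave the worth of 1 read, which was 6.26 and 6.50 normalized counts in basal replicates 1 and 3, against 19.4 and 31.2 in luminal replicates 3 and 2. Each library thus held from 643267 to 3194307 reads on genes, and both luminal libraries were shallower than both basal libraries, so that depth and cell type cannot be told apart. The worth of 1 read in luminal replicate 2 is the least certain of these, since a separate estimate of the steps did not recover it. The basal markers Krt5 and Trp63 were high in the basal libraries, at 18481 and 15824 normalized counts and at 14611 and 5015, and stood at 155 or less in the luminal libraries. The luminal marker Krt8 was at 3012 and 4287 in basal and at 13302 and 8320 in luminal libraries, in the direction of the labels. Epcam, which is on all cells of the sort, was at 2355 and 3683 in basal and at 9081 and 6170 in luminal libraries. The labels do not say whether the 2 libraries of a cell type came from separate animals, so the p-values below measure the spread between these libraries, which may be technical. In bulk samples fewer cells expressing a gene and less RNA per cell cannot be told apart.

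All 3 ligands and Notch1 were lower in luminal than in basal cells, whereas Notch2 and Hes1 were at similar levels in both. Of the 10 genes, 6 had a luminal average at or below 0.5 of the basal average (Jag1, Jag2, Dll1, Notch1, Hey1 and Nrarp) and 0 had one at or above 2 times it. These shares stand beside 16.3% of the 18737 genes that passed the filter on low values being lower by this measure and 18.3% being higher. The fold of averages is the study's own rule for calling a gene and carries no test. By limma on log2 of the normalized count plus 1, with Benjamini-Hochberg adjustment over all 18737 genes, 1 of the 10 passed an adjusted p of 0.05 (Jag2, lower in luminal cells), beside 0.694% of all genes in either direction and 0.438% in this one. By edgeR's quasi-likelihood test on whole reads recovered from the values, 4 passed (Jag1, Jag2, Dll1 and Notch1), all lower in luminal cells, beside 5.13% of 18492 genes in either direction and 2.75% in this one, and the same 4 passed by DESeq2, beside 5.74% of the genes to which it gave an adjusted p. Both luminal libraries lay below both basal libraries for 6 genes, beside 27.3% of all genes, and above them for 1 gene (Hes1), beside 23.6%. Restricting limma to genes whose mean over all 4 libraries reached 100, an alternative added after seeing the data, gave 3 calls among the 10 (Jag1, Jag2 and Notch1), beside 4.24% of 12551 genes. The median log2 fold change of the 10 genes was -1.20, and that of all genes tested was -0.10.

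**Figure D1:**
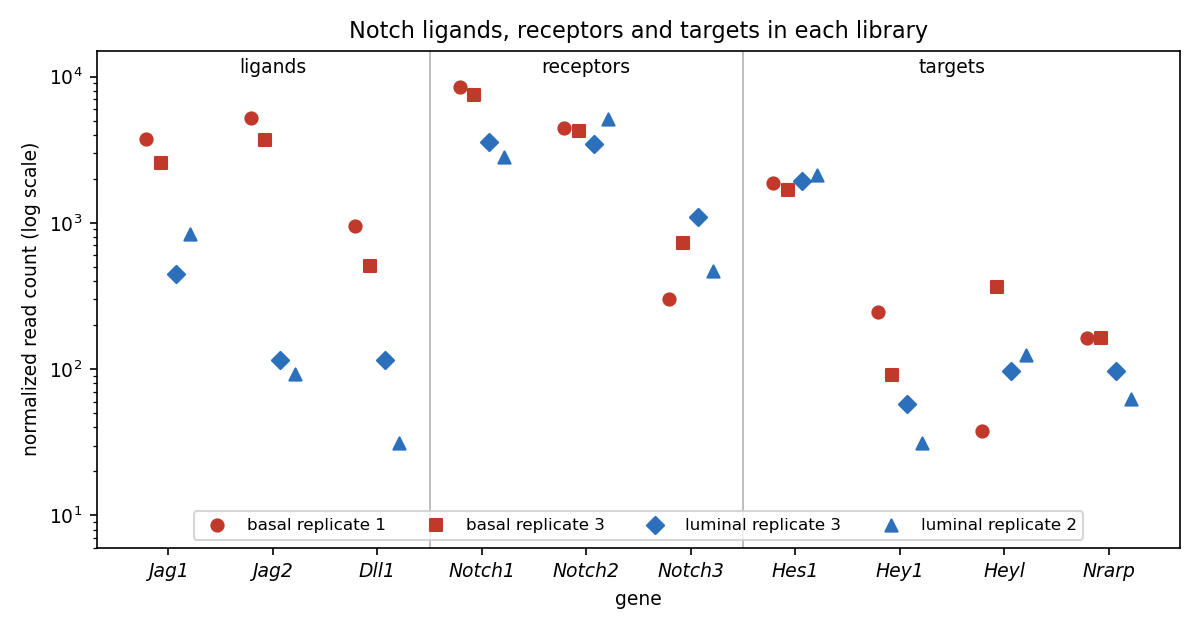
Normalized read count (log scale) of each Notch ligand, receptor and target in the 4 libraries, with red points for basal and blue points for luminal libraries and no averages drawn. The luminal points of Jag1, Jag2, Dll1 and Notch1 lie below their basal points, whereas for Notch2, Notch3 and Heyl the points of the cell types overlap in range.

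Among the ligands, Jag2 had the largest fold change. Jag2 (ENSMUSG00000002799, GRCm38 chromosome 12, 112907819 to 112929776, minus strand) encodes one of the Jagged ligands and was at 5229 and 3709 normalized counts in basal replicates 1 and 3 and at 116 and 93 in luminal replicates 3 and 2. The lowest basal library was thus far above the highest luminal library. The luminal values rested on 6 and 3 reads, against 835 and 571 in basal cells. Group means were 4469 ± 1075 (SD, n = 2) and 104.5 ± 16.3 (SD, n = 2), giving a luminal to basal ratio of 0.0234. From pooled reads the ratio was 0.0240, with an exact 95% interval of 0.0109 to 0.0456 that covers counting error only. The limma log2 fold change was -5.39 ± 0.34 (SE; adjusted p = 0.0184), and the adjusted p was 3.74e-05 by edgeR and 2.46e-13 by DESeq2. The limma call was lost when any single library was left out, at an adjusted p of 0.0601 to 0.0925, in fits that called 312 to 991 genes in all against 130 with every library, and without a filter on low values, at an adjusted p of 0.228. Its log2 fold change stayed between -5.64 and -5.14 when single libraries were left out.

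Jag1 (ENSMUSG00000027276, chromosome 2, 137081456 to 137116644, minus strand), the other Jagged ligand, had a smaller fold change. Its levels were 3726 and 2553 normalized counts in basal replicates 1 and 3 and 445 and 841 in luminal replicates 3 and 2, with no overlap between the cell types. The means were 3139.5 ± 829 and 643 ± 280 (SD, n = 2 each), a ratio of 0.205. On the log2 scale the difference was -2.33 ± 0.40 (SE), with an adjusted p of 0.0688 by limma, 0.00333 by edgeR and 0.000348 by DESeq2. Its luminal values rested on 23 and 27 reads, more than those of Jag2.

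Dll1 (ENSMUSG00000014773, chromosome 17, 15367354 to 15376872, minus strand) encodes a Delta-like ligand and was the least abundant of the 3 in basal cells. It was at 946 and 507 normalized counts in basal replicates 1 and 3 and at 116 and 31 in luminal replicates 3 and 2, which correspond to 151, 78, 6 and 1 reads. The cell types did not overlap, but both pairs of replicates were widely spread. A gene on the opposite strand, A930024N18Rik, shares 867 bases of exon with Dll1 and was at 200, 130, 39 and 0 in the same order. For Dll1 itself, the tests and averages were as follows. The means were 726.5 ± 310 and 73.5 ± 60.1 (SD, n = 2 each), a ratio of 0.101, and the pooled reads gave 0.114 with an exact 95% interval of 0.0455 to 0.240. This was a log2 fold change of -3.50 ± 0.80 (SE), with an adjusted p of 0.0866 by limma, 0.0130 by edgeR and 0.00820 by DESeq2. Its log2 fold change became -4.44 without luminal replicate 3 and -2.57 without luminal replicate 2.

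Because the 3 ligand genes were lower together, the 250 bases before each of their start sites are shown, as RefSeq gives them for GRCm38.p6. Each is read 5′ to 3′ on the gene's strand, and capitals mark matches to CANNTG, the E-box bound by many basic helix-loop-helix factors. Dll1 has 2 annotated start sites in that table.
Jag1, chr2:137116521-137116770, minus strand: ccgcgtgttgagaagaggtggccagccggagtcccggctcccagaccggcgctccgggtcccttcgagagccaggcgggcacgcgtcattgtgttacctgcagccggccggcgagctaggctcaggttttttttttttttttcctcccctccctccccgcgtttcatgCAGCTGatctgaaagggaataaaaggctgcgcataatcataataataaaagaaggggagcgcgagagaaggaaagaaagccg
Jag2, chr12:112929496-112929745, minus strand: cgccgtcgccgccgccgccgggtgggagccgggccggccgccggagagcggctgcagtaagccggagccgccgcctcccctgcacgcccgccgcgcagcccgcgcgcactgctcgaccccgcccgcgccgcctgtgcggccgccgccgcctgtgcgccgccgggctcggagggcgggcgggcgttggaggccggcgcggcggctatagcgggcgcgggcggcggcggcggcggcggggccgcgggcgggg
Dll1, first start site, chr17:15375824-15376073, minus strand: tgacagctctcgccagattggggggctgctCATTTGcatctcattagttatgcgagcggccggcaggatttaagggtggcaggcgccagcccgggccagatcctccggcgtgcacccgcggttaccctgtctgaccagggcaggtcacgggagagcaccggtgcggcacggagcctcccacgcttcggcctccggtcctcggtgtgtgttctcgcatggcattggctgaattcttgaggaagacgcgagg
Dll1, second start site, chr17:15376933-15377182, minus strand: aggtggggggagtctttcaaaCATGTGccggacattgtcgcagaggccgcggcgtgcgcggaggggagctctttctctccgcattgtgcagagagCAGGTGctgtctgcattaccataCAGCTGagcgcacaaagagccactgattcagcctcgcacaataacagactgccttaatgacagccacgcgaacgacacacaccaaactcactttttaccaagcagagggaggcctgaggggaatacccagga
The Jag2 window holds no CANNTG and is 87.2% G and C, against a median of 52.4% over the 32851 windows of the table, whereas the Jag1 window holds 57.2%. Entries were found for 7 of the 10 genes (Hes1, Hey1 and Heyl had none), in 8 windows, and both strands of each were searched. CANNTG occurred in 4 of the 8 windows, against 66.2% of all windows. Its form CACGTG, which is contained in CANNTG, occurred in 1 of the 8 (Nrarp) against 6.02%. TGGGAA, the core of the site bound by RBPJ, occurred in 0 of the 8 windows against 21.6%, and the longer GTGGGAA, which contains it, in 0 against 5.42%. A match or its absence describes the letters of these short windows and says nothing of binding.

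The 2 Jagged genes also differed in their balance. Jag1 made up 41.6% of the reads on both genes in basal replicate 1 (95% Wilson interval 39.1 to 44.2) and 40.8% in basal replicate 3 (37.7 to 43.9). In luminal replicate 3 it made up 79.3% (61.6 to 90.2) and in luminal replicate 2 90.0% (74.4 to 96.5), of only 29 and 30 reads. Jag2 therefore held most Jagged reads in both basal libraries and Jag1 held most in both luminal libraries, and the intervals of the 2 cell types did not overlap. This share is taken within a library and does not depend on how the libraries were scaled. The log2 ratio of Jag1 to Jag2 was -0.49 and -0.54 in basal and 1.94 and 3.18 in luminal libraries, a difference of 3.07. An exact permutation test of 2 libraries against 2 gave a two-sided p of 0.333, the smallest it allows, so no single value can pass 0.05 by that test here.

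**Figure D2:**
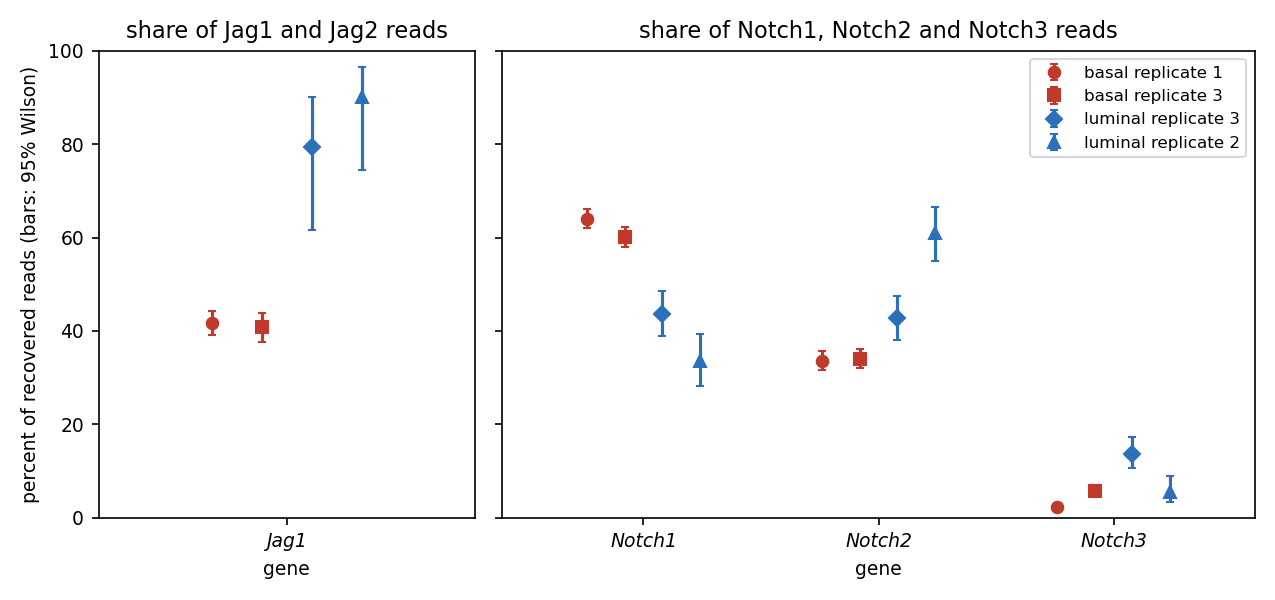
Share of recovered reads (percent, with 95% Wilson intervals) held by Jag1 among Jag1 and Jag2 reads (left) and by each of Notch1, Notch2 and Notch3 among the reads of these 3 receptors (right), for the 2 basal (red) and 2 luminal (blue) libraries. Jag1 goes from 41.6% and 40.8% in basal to 79.3% and 90.0% in luminal libraries, and Notch1 from 64.1% and 60.1% to 43.7% and 33.6%.

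Of Notch1, Notch2 and Notch3, only Notch1 passed the fold threshold. Notch1 (ENSMUSG00000026923, chromosome 2, 26457903 to 26516663, minus strand) was at 8480 and 7522 normalized counts in basal replicates 1 and 3 and at 3543 and 2836 in luminal replicates 3 and 2. The replicates of each cell type lay close together and the cell types did not overlap. The means were 8001 ± 677 and 3189.5 ± 500 (SD, n = 2 each), a ratio of 0.399. On the log2 scale the difference was -1.33 ± 0.23 (SE), with an adjusted p of 0.0688 by limma, 0.0247 by edgeR and 0.0347 by DESeq2, from 1354 and 1158 reads in basal and 183 and 91 in luminal libraries. Quantile scaling, which gives all libraries one distribution of values, left a log2 fold change of -0.97, short of the fold threshold. Transcripts of the opposite strand overlap its exons, the larger overlap being 1068 bases with 0610009E02Rik. That gene was at 1422 and 792 normalized counts in basal replicates 1 and 3 and at 445 and 592 in luminal replicates 3 and 2.

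Notch2 (ENSMUSG00000027878, chromosome 3, 98013527 to 98150361, plus strand) was at 4453 and 4261 normalized counts in basal replicates 1 and 3 and at 3466 and 5142 in luminal replicates 3 and 2. The luminal libraries lay on either side of both basal libraries. The means were 4357 ± 136 and 4304 ± 1185 (SD, n = 2 each), and the log2 fold change was -0.05 ± 0.27 (SE; limma adjusted p = 0.944). Pooled reads gave a luminal to basal ratio of 0.943, with an exact 95% interval of 0.835 to 1.06. The sign of this small difference turned with the scaling, to 0.26 when libraries were scaled to nuclear protein-coding genes, a scaling under which the median over all genes was 0.21 in place of -0.10. Gm42820, on the same strand, shares 541 bases of exon with Notch2. It was at 426 and 351 in basal replicates 1 and 3 and at 465 and 312 in luminal replicates 3 and 2.

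Notch3 (ENSMUSG00000038146, chromosome 17, 32120820 to 32166852, minus strand), a receptor best known from vascular smooth muscle cells and pericytes, was the least abundant of the 3. Its levels were 301 and 728 normalized counts in basal replicates 1 and 3 and 1104 and 467 in luminal replicates 3 and 2. The cell types overlapped, and each pair of replicates differed by more than the counting error of its reads. Pooled reads gave a luminal to basal ratio of 1.69, with an exact 95% interval of 1.26 to 2.24 for counting error only. The log2 fold change was 0.62 ± 0.62 (SE; limma adjusted p = 0.613), and it was -0.020 without basal replicate 1 and 1.25 without basal replicate 3. Markers of mural and smooth muscle cells varied among the same libraries. In luminal replicate 3, where Notch3 was highest, 8 of 10 such markers had their lowest value, among them Rgs5, which was at 720 and 2644 normalized counts in basal replicates 1 and 3 and at 19 and 249 in luminal replicates 3 and 2. The other 2 markers were Kcnj8, at 25, 13, 19 and 31 in the same order, and Des, at 820, 1715, 3207 and 2834. Kcnj8 was lowest in basal replicate 3 and highest in luminal replicate 2, whereas Des was lowest in basal replicate 1 and highest in luminal replicate 3, as Notch3 was. Both were named after their values were seen, and the part of these cells in the Notch3 values was not tested. Gm17276, on the opposite strand, shares 488 bases of exon with Notch3. It was at 63 and 162 in basal replicates 1 and 3 and at 136 and 62 in luminal replicates 3 and 2.

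The receptors' shares of their joint reads moved with these levels. Notch1 held 64.1% (95% Wilson interval 62.0 to 66.1) and 60.1% (57.9 to 62.3) in basal replicates 1 and 3, and 43.7% (39.0 to 48.5) and 33.6% (28.2 to 39.4) in luminal replicates 3 and 2. Notch2 held 33.6% and 34.1% in the basal libraries, and 42.7% (38.1 to 47.5) and 60.9% (55.0 to 66.5) in luminal replicates 3 and 2. Notch3 held 2.27% and 5.82% in the basal libraries, and 13.6% (10.7 to 17.2) and 5.54% (3.38 to 8.93) in luminal replicates 3 and 2. Notch1 thus held most receptor reads in both basal libraries, was level with Notch2 in luminal replicate 3 and came after it in luminal replicate 2. Per kilobase of exon, Notch2 led in both luminal libraries, with 45.5% against 35.2% for Notch1 in replicate 3 and 65.0% against 27.2% in replicate 2. The intervals of Notch1 did not overlap between the cell types, whereas those of the 2 luminal libraries differed from each other for Notch2 and Notch3.

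None of the 4 targets passed 0.05 by limma, edgeR or DESeq2, whether p was adjusted or not. Hes1 (ENSMUSG00000022528, chromosome 16, 30064384 to 30067796, plus strand), a repressor of the Hes family that other pathways induce as well, was at 1866 and 1676 normalized counts in basal replicates 1 and 3 and at 1917 and 2119 in luminal replicates 3 and 2. Both luminal libraries were above both basal libraries, by little. The means were 1771 ± 134 and 2018 ± 143 (SD, n = 2 each), a ratio of 1.14, and the log2 fold change was 0.19 ± 0.23 (SE; limma adjusted p = 0.675). Pooled reads gave a ratio of 1.12, with an exact 95% interval of 0.941 to 1.34. The log2 fold change of Hes1 was positive under each of 16 alternatives, from 0.11 to 0.50, with no adjusted p under 0.320.

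Hey1 (ENSMUSG00000040289, chromosome 3, 8663359 to 8667256, minus strand), a repressor of the Hey family, was at 244 and 91 normalized counts in basal replicates 1 and 3 and at 58 and 31 in luminal replicates 3 and 2. The luminal libraries lay below the basal ones, on 3 reads and 1 read. Pooled reads gave a luminal to basal ratio of 0.283 with an exact 95% interval of 0.0743 to 0.767, but the 2 basal libraries also differed beyond counting error. Its log2 fold change was -1.79 ± 0.90 (SE; limma adjusted p = 0.364), and it was -1.08 without basal replicate 1 and -2.50 without basal replicate 3.

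Heyl (ENSMUSG00000032744, chromosome 4, 123233556 to 123249875, plus strand), another Hey-type repressor and one associated with vascular smooth muscle, was at 38 and 364 normalized counts in basal replicates 1 and 3 and at 97 and 125 in luminal replicates 3 and 2. The basal libraries were thus the lowest and the highest of the 4, at 6 and 56 reads, and the luminal libraries lay between them. The log2 fold change was -0.10 ± 1.18 (SE; limma adjusted p = 0.972), and it was 1.51 without basal replicate 3 and -1.72 without basal replicate 1. Of the 10 mural and smooth muscle markers, 9 were higher in basal replicate 3 than in basal replicate 1, and the highest value of the 4 libraries fell in basal replicate 3 for 5 of them, in replicate 2 of the luminal cells for 4 and in replicate 3 for 1. Acta2, for example, was at 9770 and 21949 normalized counts in basal replicates 1 and 3 and at 3640 and 19944 in luminal replicates 3 and 2. Rgs5 was also highest in basal replicate 3, at 2644, but was at 249 in luminal replicate 2. The luminal Heyl values rested on 5 and 4 reads, and the part of mural and smooth muscle cells in the Heyl values was not tested.

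Nrarp (ENSMUSG00000078202, chromosome 2, 25180758 to 25183339, plus strand), a direct target whose product limits Notch signalling, was at 163 and 162 normalized counts in basal replicates 1 and 3 and at 97 and 62 in luminal replicates 3 and 2. The basal libraries were almost equal and the luminal libraries lower, on 5 and 2 reads. The means were 162.5 ± 0.707 and 79.5 ± 24.7 (SD, n = 2 each), a ratio of 0.489, just past the fold threshold. The log2 fold change was -1.06 ± 0.68 (SE; limma adjusted p = 0.457), and pooled reads gave a ratio of 0.514 with an exact 95% interval of 0.197 to 1.14, so a difference was not detectable at this depth. The antisense gene Gm38287 shares 2051 bases of exon with Nrarp and had nearly the same values, 150, 149, 97 and 62. Whether the counting used strand is not stated, and reads of these 2 genes cannot be told apart.

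To compare levels between genes, normalized counts were divided by exon length in kilobases. On this scale Hes1 had the highest level in both cell types, at a mean of 869 per kilobase in basal and 991 in luminal cells. In basal cells Jag2 (642), Notch1 (562), Jag1 (539) and Notch2 (404) came next, of which Jag2, Notch1 and Jag1 overlapped their neighbours in the order, while both Jag1 libraries were above both Notch2 libraries. Dll1 (172) stood apart below them, and Notch3 (63.6), Nrarp (62.9), Hey1 (51.3) and Heyl (39.3) overlapped one another. In luminal cells Notch2 (399) came second and Notch1 (224) after it, each separated from the next in both libraries. Jag1 (110) and Notch3 (97.1) followed and overlapped, and Nrarp (30.8), Heyl (21.7), Dll1 (17.4), Jag2 (15.0) and Hey1 (13.6) formed the low end, with each overlapping the next. Jag2 thus went from second in basal cells to ninth in luminal cells, and these lower luminal levels rested on 9 reads or fewer over both libraries.

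The remaining pathway was read from a list of 56 genes sorted by role, of which 51 passed the filter. By the fold of averages 8 were lower in luminal cells (Dlk2, Notch4, Lfng, Poglut1, Furin, Aph1b, Numb and Maml2) and 5 were higher (Dll3, Dlk1, Neurl1b, Psen2 and Hes6), beside 16.3% and 18.3% of all genes tested. Of the named genes, Notch4, Dll3, Psen2 and Hes6 were named after their values were seen. By limma 1 of the 51 passed (Dlk2, lower in luminal cells), beside 0.694% of all genes in either direction and 0.438% in this one. By edgeR 4 did (Dlk2, Furin, Numb and Maml2), all lower in luminal cells, beside 5.13% in either direction and 2.75% in this one. Dlk2 and Notch4 were kept by the filter only through the basal libraries, and Dll3 and Hes6 only through the luminal libraries. With both cell types required to pass the filter, 6 genes were lower by the fold of averages and 3 were higher. Dll3 rested on 2 and 3 reads in basal replicates 1 and 3 and on 3 and 2 in luminal replicates 3 and 2. Both luminal libraries were below both basal libraries for 18 genes and above them for 8, beside 27.3% and 23.6% of all genes, and 25 overlapped. The median log2 fold change of the 51 was -0.28, beside -0.10 over all genes.

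Dlk2, a non-canonical relative of the Delta ligands, was at 294 and 351 normalized counts in basal replicates 1 and 3 and at 0 in both luminal libraries. Against a floor of 3 reads per library it was at least 4.26-fold lower in luminal cells. It passed the filter only through the basal libraries, where it was high, so its call (limma adjusted p = 0.0467, edgeR 0.0118) is given as a description. That limma call was also lost without luminal replicate 2, without a filter, with median-ratio scaling and among genes whose mean reached 100, and Dlk2 is not tested where both cell types must pass the filter. Dlk1, its imprinted relative, was at 157 and 955 in basal and 484 and 2275 in luminal replicates 3 and 2, with overlap between the cell types.

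Genes that prepare the receptor or its ligand were mixed. Lfng, the Fringe glycosyltransferase that alters the receptor's choice of ligand, was at 213 and 143 normalized counts in basal and 77 and 31 in luminal libraries (limma adjusted p = 0.321). Poglut1, which adds O-glucose to the receptor, was at 770 and 520 in basal and at 194 and 312 in luminal libraries (limma adjusted p = 0.196). Neither passed the test, although their luminal libraries lay below the basal ones. Furin, the protease that cuts the receptor on its way to the surface, was at 4628 and 4053 in basal and 1723 and 1652 in luminal libraries, a log2 fold change of -1.36 ± 0.22 (SE; adjusted p = 0.0659 by limma and 0.0201 by edgeR). Ncstn, a gamma-secretase subunit chosen after its values were seen, had a log2 fold change of -0.04. Aph1b, another gamma-secretase subunit, was at 382 and 195 in basal and at 77 and 156 in luminal libraries (limma adjusted p = 0.376), but it has a near-identical copy, Aph1c, with which reads may be shared, and is uncertain. Neurl1b, an E3 ligase for ligand uptake, was at 194 and 247 in basal and at 562 and 343 in luminal libraries (limma adjusted p = 0.328). Its paralogue Neurl1a was at 81 and 91 in basal and at 77 and 218 in luminal libraries (limma adjusted p = 0.713).

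Downstream of the receptor, Numb, which restrains Notch signalling, was at 3338 and 1929 normalized counts in basal and 891 and 686 in luminal libraries, a log2 fold change of -1.70 ± 0.35 (SE; adjusted p = 0.0705 by limma and 0.0178 by edgeR). Dtx3l, of the Deltex family, overlapped between the cell types (645 and 435 against 174 and 623). Among the nuclear coactivators, Maml2 was at 3037 and 2196 in basal and 484 and 686 in luminal libraries, a log2 fold change of -2.16 ± 0.32 (SE; adjusted p = 0.0627 by limma and 0.00333 by edgeR). Maml1 was at 2136 and 2650 and at 1317 and 1278, with a limma adjusted p of 0.136. Rbpj itself, also chosen after its values were seen, was at 896 and 572 in basal and 368 and 686 in luminal libraries and overlapped. The corepressor genes Ctbp2 and Ctbp1 were lower in both luminal libraries by log2 fold changes of -0.68 and -0.66, each with a limma adjusted p of 0.248. Of the 6 other Hes and Hey genes, Hes2 and Hey2 were at 0 in all 4 libraries, 3 more failed the filter, and Hes6 was at 19 and 13 in basal and 136 and 62 in luminal libraries, on 7 reads or fewer.

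**Figure D3:**
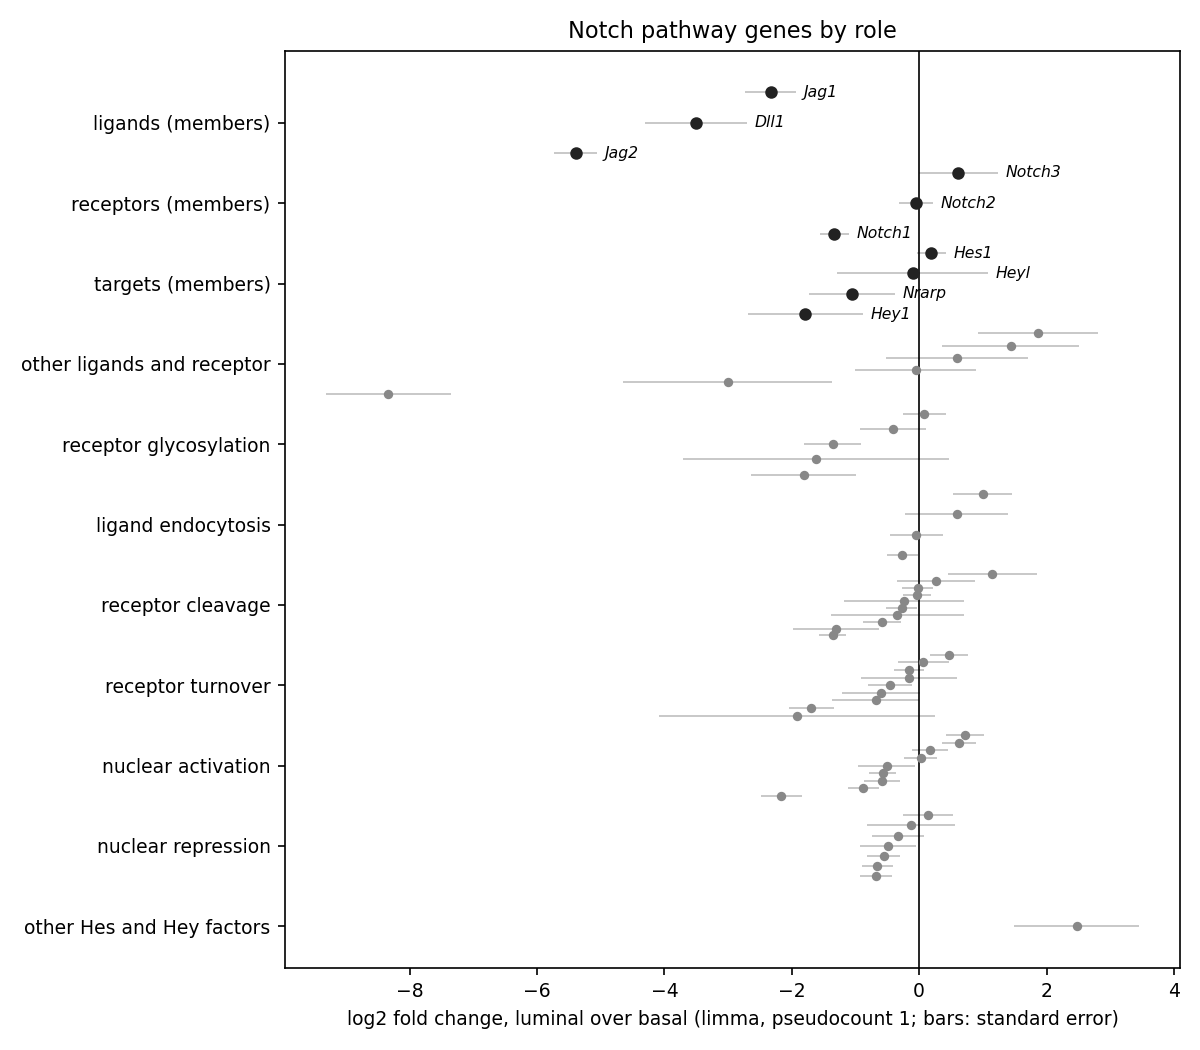
Log2 fold change (luminal over basal, limma, pseudocount 1) with its standard error for the 10 ligands, receptors and targets (black, named) and the 51 other Notch pathway genes that passed the filter (grey), grouped by role. The leftmost grey point is Dlk2, at 0 in both luminal libraries, whose fitted value depends on the pseudocount. The 3 ligands lie farther left than Notch1, while Notch2 and Hes1 lie near 0.

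Markers of other cell types, among them types that the sort should remove, were present and moved between libraries. The sum of 10 mural and smooth muscle markers was 33336 and 59632 normalized counts in basal replicates 1 and 3 and 10603 and 63663 in luminal replicates 3 and 2, and 0 of the 10 were at 0 in any library. The sum of 10 fibroblast markers was 102426, 211065, 72956 and 201717 in the same order, and Pdgfra, the gene of the excluded CD140a, was at 3307, 4144, 2575 and 8383. Neither sum separated basal from luminal cells, and luminal replicate 3 was lowest in both. Within the lists, 2 of the 10 mural and 2 of the 10 fibroblast markers had each luminal value below each basal value, beside 27.3% of all genes. Each luminal value was above each basal value for 1 mural marker (Des) and 0 fibroblast markers, beside 23.6%. The 2 lower fibroblast markers, named after their values were seen, were Thy1 and Dcn. Dcn was at 45830 and 47724 in basal and at 5770 and 20256 in luminal libraries (adjusted p = 0.143 by limma, 0.0378 by edgeR and 0.00920 by DESeq2). The sum of 10 endothelial markers ran from 755 to 1932, with Pecam1, the gene of the excluded CD31, at 833, 637, 174 and 499, and 2 and 3 of the 10 markers were at 0 in luminal replicates 3 and 2. The 5 immune markers summed to 3350, 1734, 833 and 2118 in the same order, of which Cd3e alone held 2173, 1462, 639 and 1807. Ptprc, the gene of the excluded CD45, was at 150, 6, 0 and 0, and both genes were named after their values were seen. The 3 Schwann cell markers summed to 544 and 974 in basal and 77 and 93 in luminal libraries. The 4 neuroendocrine markers summed to 561 in luminal replicate 3 and 26 or less elsewhere. The 11 genes of the dissociation stress list summed to 417167 and 218490 in basal and 149730 and 227455 in luminal libraries. Jag1, Notch1, Notch2 and Notch3 are also expressed by vascular and stromal cells, and the part of these cells in their levels was not tested.

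**Figure D4:**
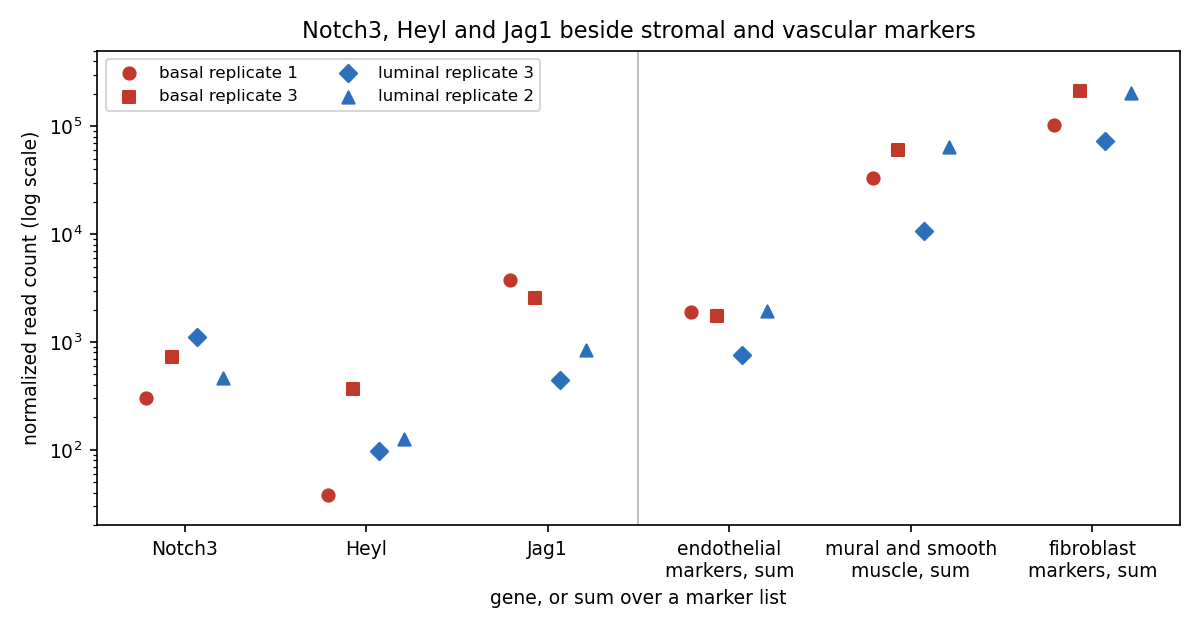
Normalized read count (log scale) of Notch3, Heyl and Jag1 (left) and the sums over 10 endothelial, 10 mural and smooth muscle and 10 fibroblast markers (right) in each of the 4 libraries, red for basal and blue for luminal. The mural and fibroblast sums are lowest in luminal replicate 3, where Notch3 is highest, and Heyl is highest in basal replicate 3.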

How the data were processed

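RNA-seq was performed on 4 libraries, 2 of basal and 2 of luminal cells, grouped as labelled. Per the submitters' processing notes and the methods, the authors mapped reads with STAR to GRCm38 (mm10), counted them per gene with HTSeq, used Picard, scaled each library to one total of aligned reads and deposited 1 signal per gene and library, a normalized count rounded to a whole number. Counting mode, use of strand and removal of duplicate molecules are not given in the sources used here. All columns were mapped to a sample, leaving 0 unmapped.

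Gene symbols and positions were read from GENCODE for GRCm38, with a symbol for 49326 of 49671 identifiers. Upstream sequences came from RefSeq (GRCm38.p6). A gene was kept when each sample of at least 1 cell type was at 10 or more and that type's average at 20 or more, which is one reading of the study's filter. This kept 18737 genes, against 14953 if every sample of both types must pass. A fold call was a ratio of averages of at least 2 or at most 0.5. limma 3.58.1 (R 4.3.3) with a trended prior was fitted to log2(value + 1), with an adjusted p of 0.05. Since 1 read is worth more than this pseudocount, fold changes on this scale are overstated where a library is at 0.

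Low values, up to 60 reads, were whole multiples of the value of 1 read within 0.55 for 97.9% to 99.0% of them. In luminal replicate 2 the share was 98.3%, but a separate estimate of the spacing did not recover the same value of 1 read there, so its read counts, and the tests on them, are less certain. Whole reads recovered this way totalled 3194307 and 3079273 in basal replicates 1 and 3 and 1036685 and 643267 in luminal replicates 3 and 2, and were tested with edgeR 4.0.16 and DESeq2 1.42.0, which called 948 and 814 genes. These tests left out genes off the spacing (533 genes in any library), none of them named here. Intervals (95%) and the floor of 3 reads cover counting error only. numpy 2.4.6, pandas 2.3.3, scipy 1.17.1 and matplotlib 3.10.9 were also used, and the tests were tried on simulated data.

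The 10 genes, the pathway and marker lists and the tests were chosen with earlier results of these data known. Named beside the 10 were, in each role of the pathway, the 2 genes with the largest log2 fold change at an average of 100 or more, every gene called by limma, and 8 cell type markers. Alternatives changed the filter, pseudocount, scaling, fold threshold and model and left out each library in turn. A filter at an average of 100 and leaving out the genes off the spacing were added after seeing the data.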

Additional observations from a re-analysis of the deposited data

How the results depend on the processing

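The depth of the luminal libraries limits these results, since Dll1, Jag2, Hey1, Heyl and Nrarp rested there on 9 reads or fewer each. No paired analysis was possible because the basal libraries are numbered 1 and 3 and the luminal libraries 3 and 2, which share 1 number. Where a library was left out, the lone library of its group was assumed to vary like the other group, and fewer residual degrees of freedom remained.

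Of the counts of genes, 65 of 95 stayed within 1.5 times the main count. Ligands, receptors and targets lower in luminal cells numbered 6, and 3 at a 4-fold threshold. Higher ones numbered 0, and 1 at a 1.5-fold threshold (Notch3), and from 0 to 2 when each library was left out (Notch3 and Heyl without basal replicate 3, Notch3 without luminal replicate 2). limma called 1 (Jag2), but 0 without a filter, 4 with the filter applied to every sample of both groups, the other reading of the study's filter, 3 with a pseudocount of 10, 4 with a pseudocount of 32, 3 at an average of 100 or more (added after seeing the data, of 532 genes called) and 0 to 0 when each library was left out, against 4 by edgeR and 4 by DESeq2. Over all genes limma called 130, against 0 without a filter, 678 under the stricter filter, 531 and 668 at the larger pseudocounts, 544 without a trended prior, 381 with quantile scaling and 312 to 991 when each library was left out, so the loss of Jag2 there came with more calls over all genes. Scaling to nuclear protein-coding genes changed the split of all fold calls from 3051 lower and 3431 higher to 2147 and 4551. Nrarp missed the fold threshold under that scaling, under median-ratio scaling and without luminal replicate 2, and Notch1 missed it under quantile scaling.

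Of the other pathway genes, 8 were lower, and 2 at a 4-fold threshold, and 5 were higher, with 3 under the stricter filter, 8 at 1.5-fold, 1 at 4-fold, 3 at an average of 100 or more and 3 to 5 when each library was left out (3 without basal replicate 1). limma called 1 of them, with 0 without a filter, 3 under the stricter filter (which Dlk2 cannot pass), 3 and 4 at pseudocounts of 10 and 32, 0 with median-ratio scaling, 3 at an average of 100 or more (Dlk2 not among them), 0 to 1 when each library was left out, and 4 each by edgeR and DESeq2.

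Of 160 alternative log2 fold changes of the 10 genes, 9 changed sign, all of Notch2, Notch3 and Heyl. Notch2 was at 0.33 with quantile scaling, 0.26 with nuclear protein-coding scaling, 0.013 by DESeq2, and between -0.33 and 0.24 when each library was left out (0.24 without luminal replicate 3). Notch3 ran from -0.020 without basal replicate 1 to 1.25, with -0.0037 without luminal replicate 3. Heyl was at 0.20 with nuclear protein-coding scaling and ran from -1.72 without basal replicate 1 to 1.51 without basal replicate 3, with 0.08 without luminal replicate 3. The cause was not tested.

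Per kilobase of exon, the share of Jag1 was 46.0% and 45.1% in basal replicates 1 and 3. The share of Notch1 was 57.0% and 52.1% in basal replicates 1 and 3 and 35.2% and 27.2% in luminal replicates 3 and 2, that of Notch2 39.5% and 39.0% in the basal and 45.5% and 65.0% in the luminal libraries, and that of Notch3 3.56% and 8.88% in basal replicates 1 and 3 and 19.3% and 7.87% in luminal replicates 3 and 2.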
